A study of Mus musculus with 13 samples.

Results

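Hepatocytes of the middle of the mouse liver lobule were described before and after partial hepatectomy, the surgical removal of 2/3 of the liver. Transcripts of 100 genes had been counted by Molecular Cartography, an in situ hybridisation assay that places single RNA molecules in a tissue section, and the counts were given per outlined cell. Cells were placed along the lobule by the share of their counts from Cyp2e1, an ethanol- and drug-oxidising cytochrome of the central side, and from Pck1, a gluconeogenic enzyme of the portal side. The rank of a cell's Pck1 share in its section was subtracted from the rank of its Cyp2e1 share, and the cells between the 40th and the 60th percentile of this difference formed the mid band. Cells under 100 counts and the 5% with the highest share of Glul, the glutamine synthetase of the innermost central rim, were left out. The mid band held 24515 of 122974 cells with 100 or more counts, out of 131221 cells in all. Cells at or above the 80th percentile (central band, 18887 cells) and at or below the 20th (portal band, 24580 cells) served for comparison.

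The animals were male C57BL/6 mice of 2 months on chow, and all received the same assay on frozen sections of the liver or, after surgery, of the regrown lobes. The series has 13 sections: 2 before surgery (0 h), 2 each from 24 h, 48 h and 72 h after it, 3 from 14 d, and 1 each from 3 mo and 6 mo, with no sham-operated group among the labels. Mid-band cells numbered 2060 and 2142 at 0 h, and after surgery 1213 and 854 (24 h), 1830 and 1833 (48 h), 930 and 2143 (72 h), 2225, 3002 and 2993 (14 d), 1511 (3 mo) and 1779 (6 mo). The 24 h sections carried no number and shared a slide position, so their counts were summed, giving 12 libraries. The labels do not tie the sections of a time to separate animals, and the p-values therefore measure only the spread between these sections, which may be technical. Should the mice have been 2 months old when operated on, those of 3 mo and 6 mo were also older, and then their age and the time cannot be told apart. Slide 1 held the first 0 h section with those of 24 h, 48 h, 3 mo and the first of 72 h, slide 2 held the second of 0 h and of 72 h with 6 mo, and slide 3 held 14 d alone, and for 14 d the effect of the slide cannot be told apart from that of the time.

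In the liver lobule blood flows from the portal tract to the central vein, and hepatocytes along this path carry out different work. Portal hepatocytes make glucose and urea, while central hepatocytes oxidise drugs, make bile acids and capture ammonia as glutamine under the control of Wnt ligands and R-spondins from the central vein's endothelium. Hepatocytes between them are known for Igfbp2, a secreted binding protein of insulin-like growth factors, and for cyclin D1 (Ccnd1), which drives cells from rest through the G1 phase and is needed for regrowth after hepatectomy. Cyp8b1, the sterol hydroxylase that makes cholic acid, is also used as a marker of this region.

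The genes that chose the cells are given as a description only, and they were left out of the levels, depths and gene tests below unless said otherwise. Cyp2e1 made up 19.14% and 13.51% of the mid-band counts in the sections at 0 h, between 0.93% and 6.04% in those of 24 h and 48 h, 5.47% and 10.04% at 72 h, 5.75% to 7.81% in the 14 d sections, 10.55% by 3 mo and 10.85% by 6 mo. In the central band its share lay between 25.58% and 68.56%. In the portal band it was 0.13% to 0.16% in the 14 d sections and 0.0017% or less in all others. Pck1 made up between 7.51% and 23.38% of mid-band counts. The band has no natural edge: in the first 0 h section Cyp2e1 made up 2.95% of counts in the 200 cells just inside its portal limit and 1.61% in the 200 just outside, and 40.13% and 43.38% at its central limit.

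Against its markers, the band answered to Igfbp2 and not to Cyp8b1. With cells ordered in 10 equal classes of the rank difference, Igfbp2 rose from 194 counts per 10000 in the portal-most class to 370 in the sixth and fell to 66.1 in the central-most, as a mean over sections of counts without the genes of the rule. Its highest class lay between the fourth and the seventh in 13 of 13 sections. Ccnd1 had its highest mean in the neighbouring seventh class, with 137 per 10000, against 37.0 and 61.0 at the portal and central ends, and its highest class lay between the sixth and the eighth in every section. Cyp8b1 was nearly level over the classes, with 38.2 in the first, 38.7 in the sixth and 34.0 in the tenth, and its highest class fell anywhere from the first to the tenth. The cells are therefore called by their rule.

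**Figure D1:**
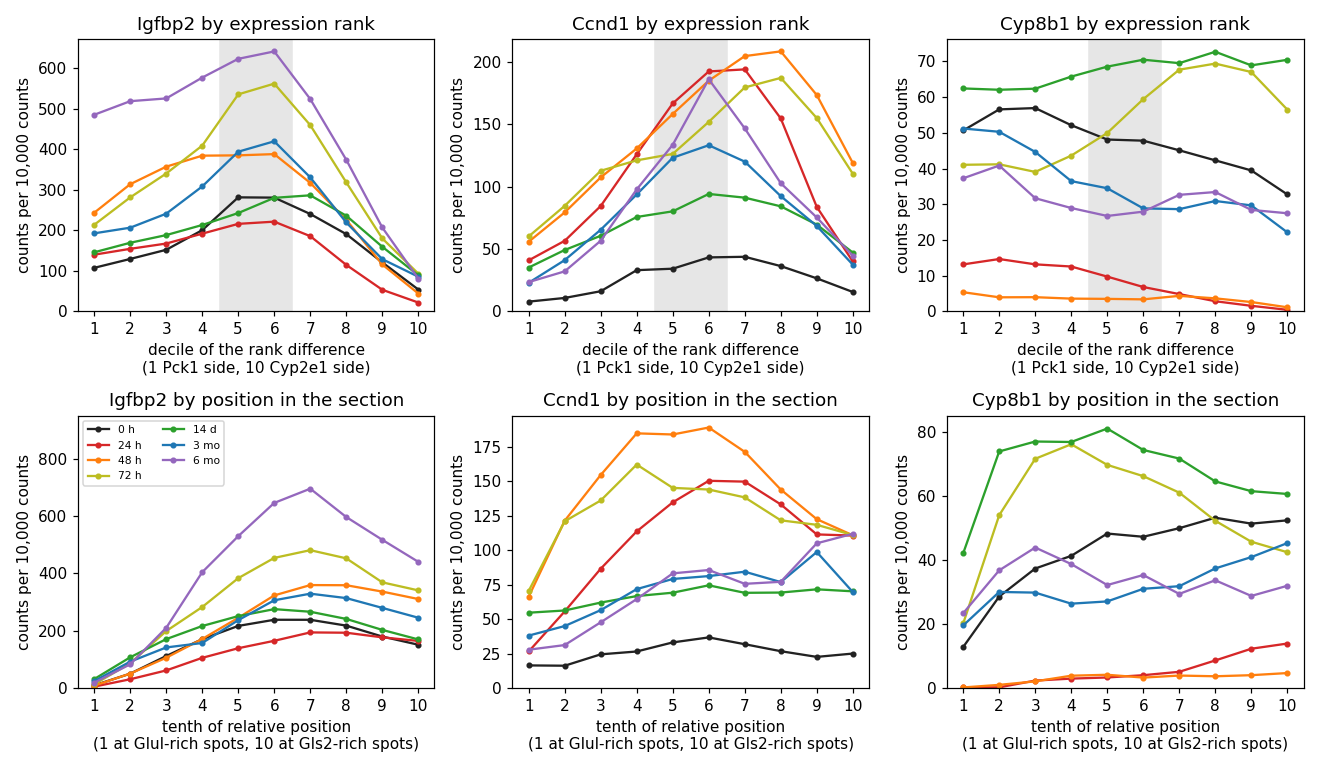
Counts of Igfbp2, Ccnd1 and Cyp8b1 per 10000 counts, by class of the rank difference (upper row, portal side at the left, grey marks the classes of the mid band) and by relative position between Glul-rich and Gls2-rich spots in 10 equal steps (lower row, step 1 nearest to Glul-rich spots). Lines are means over the sections of a time. By class, Igfbp2 is highest in classes 4 to 7 and Ccnd1 in classes 6 to 8, while Cyp8b1 has no common peak.

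Counts without the rule's genes ran from 323907 to 1389493 per mid-band library. Counted without these genes, mid-band cells had medians of 167 to 465 counts per cell over the libraries, against 101 to 304 in the central band, and the mid band was higher in 12 of 12 libraries (sign-flip permutation test, two-sided exact p = 0.0005, the smallest that 12 libraries allow). Portal-band cells had 205 to 491.5, which differed from the mid band by -15.6 ± 25.7 counts (mid minus portal, SD, n = 12 libraries, exact permutation p = 0.0605). The outer bands were chosen for a high share of Cyp2e1 or Pck1, so leaving these genes out lowers their depth by the rule itself. With them kept, as first planned, the mid band differed by -98.4 counts from the central and by -76.6 from the portal band. It was then higher in 0 of 12 libraries for both, so these tests do not decide which cells were deeper. A cell with little of either gene also lands in the middle of the ranking, so the genes of other cell types were followed. Pecam1 (endothelium), Adgre1 and Lyz2 (macrophages), Ptprc (leukocytes), Lrat (stellate cells) and Sox9 (bile duct cells and progenitors) together made up 1.28% to 4.20% of mid-band counts without the rule's genes, 0.967% to 3.83% in the central band and 0.279% to 1.31% in the portal band. The mid-band share was higher than the portal by 1.59 ± 0.857 percentage points (SD, n = 12 libraries, 12 of 12 higher, exact permutation p = 0.0005). It differed from the central by -0.0971 ± 0.674 points, with 5 of 12 libraries higher (exact permutation p = 0.626). With the rule's genes kept, as first planned, it was higher than the central by 0.769 points, in 11 of 12 libraries (exact permutation p = 0.001). Leaving out Cyp2e1, which chose the central band, raises the share of that band. Whether the mid and central bands differ in this share is therefore not settled. Gene by gene against the central band, Sox9, Adgre1 and Ptprc were higher (3.96, 0.62 and 0.54 log2 units), Pecam1 was lower (-0.38), and Lyz2 and Lrat did not pass the test (0.35 and -0.31). Between 20.19% and 41.27% of mid-band cells had no count of these 6 genes, and results with those cells alone are given below. The 2 sections at 0 h stood farthest apart of all repeated sections, with 30 of 91 genes differing by more than 1 log2 unit, against 0 to 21 in the other pairs. G6pc, for example, was at 18118 and 128704 CPM in them (counts per 1000000 of a library's TMM-scaled total without the genes of the rule, the scale of all levels below). Names of cells, which are coordinates, were shared by at most 2 cells in any pair of sections.

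The cells were also placed between 2 landmarks in the tissue. Over square tiles of 200 coordinate units chosen by the same rule, the median distance from mid-band tiles to the nearest Glul-rich tile lay between 1000 and 1414 units in 11 libraries with transcript positions, against 400 to 447 for central-band and 1600.0 to 2059 for portal-band tiles. Glul is a gene of the rule, so these distances are a description. The nearest tile rich in Gls2, the glutaminase of the portal side and no part of the rule, lay 447 to 600.0 units away, against 1000 to 1166 for central-band and 200 to 283 for portal-band tiles (exact sign-flip permutation test, two-sided p = 0.001 for both, the smallest that 11 libraries allow). In the tiles Gls2 was taken as a share of all counts, so tiles rich in Cyp2e1 or Pck1 rank lower in it. That test is thus partly set by the rule. With cells in place of tiles, Gls2 was taken as a share of counts without the rule's genes (chosen after seeing the data). The distances were then 352 to 540.3 units for the mid, 885 to 1164 for the central and 197 to 380.2 for the portal band. The mid band differed from both (exact sign-flip permutation test over 12 libraries, two-sided p = 0.0005 for each). The sources used here do not state the unit of length. On a scale from 0 at a Glul-rich spot to 1 at a Gls2-rich spot, the median mid-band cell of a section stood at 0.69 to 0.81, again as a description. Its members were mixed with others: of the 10 nearest cells of a mid-band cell, 27.9% to 53.9% were mid-band cells too.

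Of 91 genes with enough counts, 42 (46.2%) were higher and 33 (36.3%) lower in the mid than in the central band, and 32 (35.2%) were higher and 35 (38.5%) lower than in the portal band (edgeR quasi-likelihood test with the library as block, Benjamini-Hochberg adjusted p under 0.05). In either direction these are 82.4% and 73.6% of the genes tested. Many followed the axis: 25 genes (27.5%) rose at both steps from central to portal and 20 (22%) fell at both. A further 9 genes (9.89%) were higher in the middle than on both sides, 5 (5.49%) were lower than on both, 24 (26.4%) passed against 1 of the 2 bands and 8 (8.79%) against neither. Scaling by total counts in place of TMM factors raised the median mid-minus-portal difference by 0.37 log2 units and turned that split to 43 higher and 16 lower. The middle was also set by position between the landmarks, at 0.4 to 0.6 of that scale, with central under 0.2 and portal over 0.8. By this, 0 genes were higher than on both sides. This middle lay nearer to the Glul-rich spots than the median mid-band cell did. In 10 equal steps of position, mean Igfbp2 was 16.1 per 10000 in step 1, 336 in step 7 and 241 in step 10. Mean Ccnd1 was 45.3 in step 1, 110 in step 6 and 85.2 in step 10. The highest step of a section ran from 6 to 9 for Igfbp2 and from 4 to 10 for Ccnd1.

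**Figure D2:**
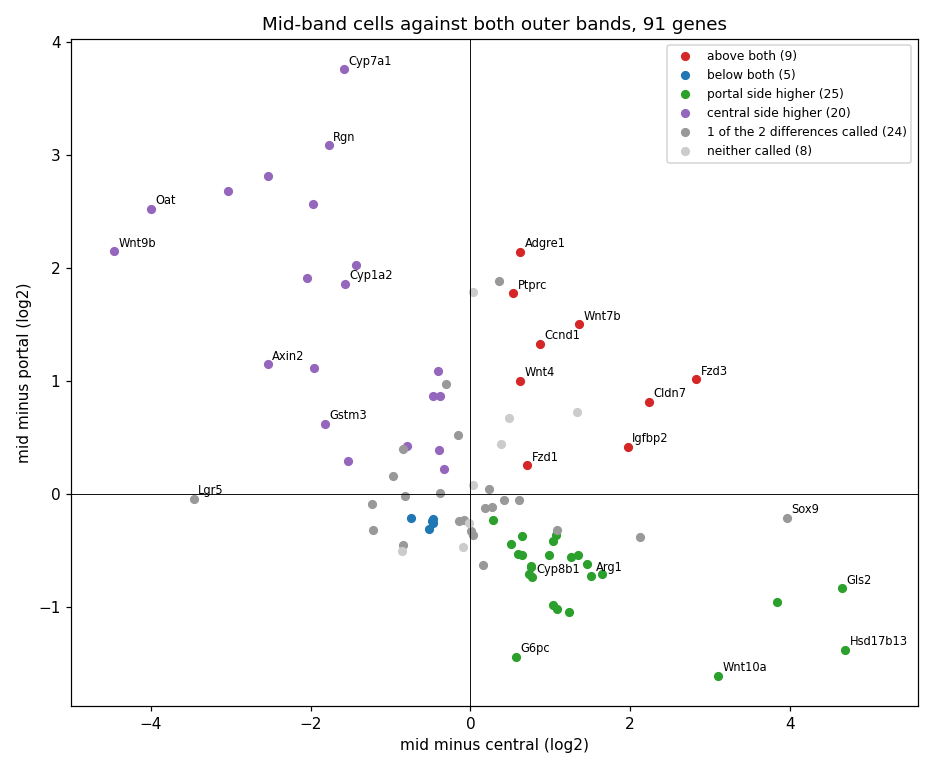
Log2 difference of mid minus central band (horizontal) and mid minus portal band (vertical) for 91 genes, averaged over 7 times, with colours for the class of each gene. The 25 genes that rise towards the portal side lie at the lower right and the 20 that fall at the upper left, and 9 lie at the upper right as higher than both.

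Igfbp2 was highest in the mid band. Its level there was 31002 and 36472 CPM in the 0 h sections, 21808 by 24 h, 36727 and 33045 in those of 48 h, and 43052 and 54633 in those of 72 h. The 14 d sections had 30154, 19094 and 18006, and the single sections 37433 (3 mo) and 61990.4 (6 mo). Central-band levels of Igfbp2 lay between 4303 and 16702 and never reached those of the mid band, while portal-band levels of 14840.0 to 56486 overlapped them widely. The mean over libraries was 37302 in the mid, 9699.9 in the central and 28474 in the portal band. Igfbp2 was higher than in the central band by 1.97 ± 0.13 log2 units (SE, edgeR adjusted p = 1.38e-09, 12 of 12 libraries) and higher than in the portal band by 0.42 ± 0.12 (edgeR adjusted p = 0.0063, 11 of 12). Among cells without counts of other cell types the differences were 2.21 and 0.54. When the middle was set by position the central difference of Igfbp2 was 3.12, and the portal one was -0.055 (edgeR adjusted p = 0.775), so that call depends on how the middle was set.

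Ccnd1 was likewise higher in the mid band than on both sides. Its mid-band level was 5413 and 3674 CPM before surgery and 17676 by 24 h. The 48 h sections had 15483 and 15419, those of 72 h 12737 and 11827, and those of 14 d 7286, 7192 and 7690. The last libraries had 11794 (3 mo) and 15600.4 (6 mo), so over all mid-band cells together Ccnd1 was high early and again late, with its lowest values before surgery. In the central band Ccnd1 ran from 1825 to 16108 and in the portal band from 968 to 9452. The first 48 h section alone had more Ccnd1 in the central than in the mid band. The mean Ccnd1 level was 12105 in the mid, 7010.2 in the central and 5095 in the portal band, a difference of 0.87 ± 0.12 log2 units to the central band (edgeR adjusted p = 7.78e-06, 11 of 12 libraries) and 1.33 ± 0.12 to the portal band (edgeR adjusted p = 1.53e-07, 12 of 12). With the middle set by position the central difference of Ccnd1 was 1.24 and the portal one 0.0099 (edgeR adjusted p = 0.959).

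Part of the mid-band Ccnd1 sat in cells that also held counts of other cell types. At 0 h members with such counts had 62.0 and 39.5 Ccnd1 counts per 10000 and members without had 25.5 and 15.8. The values were 193 and 233 against 127 and 144 by 24 h, and 188 and 208 against 126 and 130 in the 48 h sections. The 6 mo section had 197 against 61.6, and there 1% of the cells held 18.1% of all mid-band Ccnd1 counts. Members with such counts were higher in 13 of 13 sections. The zone difference stood when these cells were removed, at 1.24 to the central and 1.32 to the portal band.

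**Figure D3:**
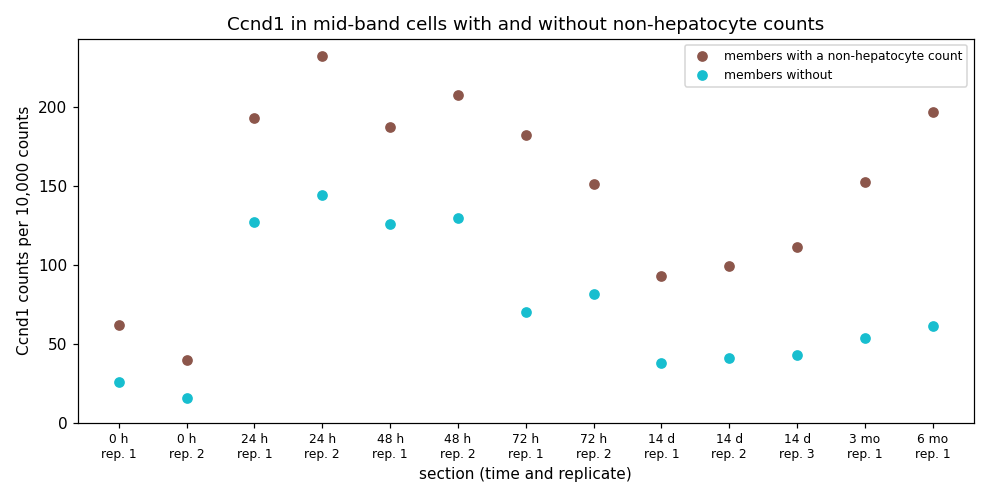
Ccnd1 counts per 10000 counts in mid-band cells with and without a count of 6 genes of other cell types, by section. In every section the cells with such counts stand higher, and both kinds stand higher at 24 h and 48 h than at 0 h.

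The other 7 genes higher than on both sides were the leukocyte gene Ptprc, the macrophage gene Adgre1, the tight-junction gene Cldn7, the Wnt receptors Fzd1 and Fzd3 and the ligands Wnt4 and Wnt7b. Adgre1 averaged 1633 CPM in the mid, 1056 in the central and 392 in the portal band. Cldn7 averaged 130, 32.3 and 63.9, with differences of 2.23 ± 0.23 to the central and 0.82 ± 0.17 to the portal band. Among cells without counts of other cell types the Cldn7 difference to the central band was -1.07, and of the 9 genes only Igfbp2 and Ccnd1 were still called. These were also the only 2 called when both ranks had to be in the middle. The 5 genes lowest in the mid band were Hpd (tyrosine breakdown), Cpt2 (fat import into mitochondria), the complement gene C6, the Wnt receptor Fzd7 and Znrf3, which removes Wnt receptors. They lay 0.21 to 0.31 log2 units below the portal band, and each of the 5 differences turned positive with total-count scaling.

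Portal functions were at an intermediate level in the mid band. Of the 12 portal genes 10 were higher than in the central band and 11 lower than in the portal band, beside 46.2% and 38.5% of all genes. Their medians were 1.03 and -0.70 log2 units, against 0.18 and -0.08 over all genes. The urea cycle genes stood between the bands, 3 of 3 at each step, beside 27.5% of all genes that rose at both steps. Arg1, which releases urea, averaged 6342 CPM in the central, 18204 in the mid and 29964 in the portal band. Of the gluconeogenic pair, G6pc rose from 16284 to 23993 and 70722 and Fbp1 from 22179 to 51603 and 105227. The steepest step at the central side was that of Hsd17b13, a lipid droplet enzyme, with 520.5 CPM in the central, 8874 in the mid and 22032 in the portal band (4.69 ± 0.13 and -1.37 ± 0.10 log2 units, both called). Gls2 differed by 4.66 ± 0.21 from the central band and by only -0.83 ± 0.16 from the portal band. Igf1, the circulating growth factor, averaged 13008, 21788 and 35005, and its serum carrier Igfals had steps of 0.73 ± 0.15 and -0.71 ± 0.13. So within the IGF axis Igfbp2 alone was higher in the middle than on both sides. Cyp8b1 averaged 2714 in the central, 3315 in the mid and 4736 in the portal band (0.77 ± 0.30, edgeR adjusted p = 0.0288, and -0.73 ± 0.29, edgeR adjusted p = 0.0322). Both Cyp8b1 calls were lost without the first 72 h or the first 14 d section, and 1 of them without others. Over the classes of the rank difference, given as shares of total counts without TMM factors, Cyp8b1 was instead nearly level. Total-count scaling raised the median mid-minus-portal difference of all genes by 0.37 log2 units and lowered the mid-minus-central one by 0.12. The size of the Cyp8b1 gradient thus depends on the scaling.

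Central functions reached into the mid band to different depths. All 15 central genes tested were lower than in the central band, and 11 were still higher than in the portal band, beside 36.3% and 35.2% of all genes. Their medians were -1.78 and 1.12 log2 units. The central and portal lists hold genes known for their side, and Cyp2e1 and Pck1 set the bands. The directions of both lists were thus largely set in advance. Oat, an ornithine aminotransferase, fell most steeply, from 43482 CPM in the central to 2893 in the mid and 510.2 in the portal band (-4.00 ± 0.10 and 2.53 ± 0.10). The ascorbate and calcium enzyme Rgn kept more of its level, at 26711, 8553 and 1331, as did Cyp7a1, which takes cholesterol into the classic pathway of bile acids, at 5548, 2023 and 199. The drug oxidase Cyp1a2 averaged 18883, 7425 and 3224. Of the mu-class glutathione transferases Gstm2 and Gstm3 were graded (37056, 13847 and 8766 for Gstm3), while Gstm1 did not pass the test against the portal band (0.40 ± 0.25, edgeR adjusted p = 0.152). These 3 are close paralogs, and the sources used here do not say how their probes were kept apart, so the split between them is uncertain.

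Wnt targets, feedback genes and ligands were followed as transcripts only, and Wnt activity itself was not measured. The 6 target and feedback genes were all lower than in the central band, and 4 of them were higher than in the portal band, beside 36.3% and 35.2% of all genes. Znrf3 was lower than in both bands. Axin2, a general Wnt target, averaged 1821, 400.4 and 287 CPM and Tbx3, a central transcription factor, 2028, 266 and 49.2. Lgr5, the R-spondin receptor, was at 418 in the central band and at 37.5 and 35.8 in the mid and portal bands, whose difference did not pass the test (-0.04 ± 0.23). The endothelial ligand genes fell in the same order. Wnt9b averaged 715 in the central, 37.3 in the mid and 7.8 in the portal band, Wnt2 averaged 1372, 342 and 91.1, and Rspo3 averaged 676, 112 and 19.0. The endothelial gene Pecam1 differed less, at 6017, 4524 and 2776. In the other direction, Wnt10a had 159 in the central, 855 in the mid and 2397 in the portal band.

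Mid-band levels of each time were then set against those before surgery. Against 0 h, 11 genes (12.1% of the 91) rose and 7 (7.69%) fell at 24 h, while 9 (9.89%) rose and 10 (11%) fell at 48 h, and 7 (7.69%) rose and 6 (6.59%) fell at 72 h (edgeR quasi-likelihood test over 12 libraries, Benjamini-Hochberg adjusted p under 0.05). The 14 d sections had 17 rises (18.7%) and 11 falls (12.1%), that of 3 mo 2 rises (2.2%) and 0 falls, and that of 6 mo 6 rises (6.59%) and 5 falls (5.49%). In either direction these calls were 19.8%, 20.9%, 14.3%, 30.8%, 2.2% and 12.1% of the genes. Total-count scaling moved the median of all genes upwards by 0.28 to 0.48 log2 units and gave 13 and 2, 17 and 3, 11 and 1, 31 and 7, 2 and 0, and 10 and 3. Of the falls, 0, 2, 1, 7, 0 and 2 were kept whichever section was left out, and of the rises 6, 5, 4, 9, 0 and 5. At 3 mo, 24 h and 6 mo the time had 1 library, which is taken to vary like the others. As these are counts relative to a library's total over the panel, they give no amount per cell.

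**Figure D4:**
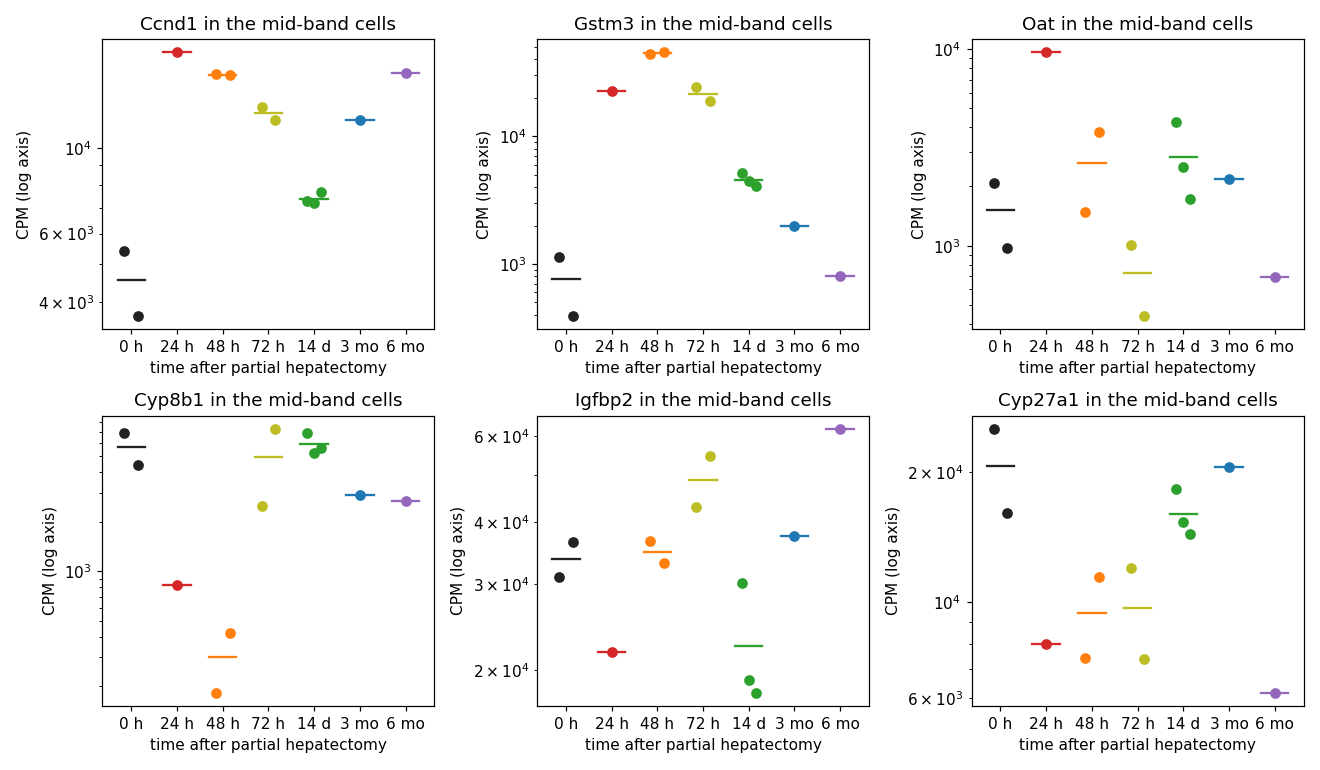
Mid-band level in CPM (log axis) of Ccnd1, Gstm3, Oat, Cyp8b1, Igfbp2 and Cyp27a1 by time, with a point per library and a bar at the mean. Gstm3 stands above its 0 h values at 24 h to 14 d, Cyp8b1 is lowest at 48 h, and the Ccnd1 points of all later times lie above those of 0 h.

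The cyclins of G1 and of its passage to S phase rose early. Ccnd1 was above both 0 h sections in all later libraries, by 1.96 ± 0.31 log2 units at 24 h (edgeR adjusted p = 0.000327), 1.77 ± 0.27 at 48 h (edgeR adjusted p = 0.000174) and 1.43 ± 0.27 at 72 h (edgeR adjusted p = 0.0018). It also rose by 1.78 ± 0.31 at 6 mo (edgeR adjusted p = 0.0029). On slide 2 alone the 6 mo section had 15600.4 and the 0 h section 3674 CPM. These 4 rises of Ccnd1 were called also among cells without counts of other cell types, and whichever section was left out. The smaller rises of 0.70 ± 0.24 at 14 d (edgeR adjusted p = 0.0392) and 1.38 ± 0.31 at 3 mo (edgeR adjusted p = 0.0301) were not: without the second 0 h section they were 0.24 (edgeR adjusted p = 0.397) and 0.87 (edgeR adjusted p = 0.111). Leaving out either 72 h section or any of the 14 d sections also ended the 14 d call, and with the slide as a block it was 0.56 (edgeR adjusted p = 0.0841). That block cannot part slide 3 from 14 d, so the value still holds any effect of slide 3. Leaving out either 48 h section or the second or the third of 14 d ended the 3 mo call. With each cell thinned to 50 counts of the genes outside the rule, 22.1% and 13.9% of mid-band cells had a Ccnd1 count at 0 h, 51.4% and 55.9% by 24 h, 50.1% and 54.9% in the 48 h sections, and 49.0% and 45.3% in those of 72 h. The share was 29.6% to 32.1% in the 14 d sections, 37.4% in that of 3 mo and 36.4% in that of 6 mo. All later sections thus stood above both of 0 h. Over all times the thinned share lay between 9.4% and 54.8% in the central and between 2.1% and 34.3% in the portal band. Unthinned, it was 36.7% to 96.6% in the mid, 20.5% to 88.5% in the central and 8.5% to 86.0% in the portal band. At most 12 mid-band, 123 central-band and 4 portal-band cells of a section were too shallow to be thinned and were left out. At 3 mo and 6 mo the thinned counts were more uneven from cell to cell, with a variance of 4.7 and 5.4 times the mean against 1.4 in both sections at 0 h.

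Ccne1, the cyclin of the G1 to S transition, stood at 461 and 75 CPM before surgery, 2006.5 by 24 h, 2218 and 1582 in the 48 h sections, 735 and 816 in those of 72 h, and 309 to 375 in the later libraries. The rise was 2.90 ± 0.72 log2 units at 24 h (edgeR adjusted p = 0.0185) and 2.82 ± 0.65 at 48 h (edgeR adjusted p = 0.0083). Without the first 48 h section the latter was 2.56 with an edgeR adjusted p of 0.0553. From 72 h on Ccne1 did not pass the test, and its levels lay between the 2 sections of 0 h from 14 d on. Unlike Ccnd1, Ccne1 averaged highest in the portal band, with 631 in the central, 850.0 in the mid and 1007 in the portal band. The mid band stood above the portal band in 3 of 12 libraries. The mid-minus-portal step of -0.37 ± 0.13 log2 units was about as large as the median shift of 0.37 under total-count scaling. With cells thinned as above, 8.2% and 8.8% of mid-band against 5.1% and 4.6% of portal-band cells had a Ccne1 count at 24 h. In the 48 h sections it was 10.7% against 6.3% and 8.1% against 12.6%. Cyclins of later phases were almost unseen: Ccna1 had 31 counts and Ccnb1 17 over all mid-band cells, too few to test.

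Gstm3, which conjugates glutathione to electrophiles, had the largest of the early rises. It was at 1142 and 392 CPM before surgery, 22453 by 24 h and 43989 and 45698 in the 48 h sections. The 72 h sections had 24277 and 18766, those of 14 d 5168, 4457 and 4074, and the last libraries 1968 (3 mo) and 808 (6 mo). Gstm3 thus rose by 4.87 ± 0.48 log2 units at 24 h, 5.87 ± 0.47 at 48 h (edgeR adjusted p = 1.06e-06), 4.81 ± 0.45 by 72 h and 2.57 ± 0.39 by 14 d, and its 6 mo level lay between those of the 0 h sections. Gstm2 rose at the same 4 times by 1.77 to 3.01, and Gstm1 at 48 h, 72 h and 14 d by 2.54 to 3.11. The calls from 48 h to 14 d of all 3 were kept whichever section was left out.

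Of the 4 genes of bile acid and taurine synthesis, 2 fell at 24 h and at 48 h (Cyp8b1 and Cyp27a1) and 1 at 72 h and at 6 mo (Cyp27a1), beside 7.69%, 11%, 6.59% and 5.49% of all genes. Csad, an enzyme of taurine synthesis, passed at no time (-3.21 log2 units by 24 h, 0.12 by 48 h). Cyp8b1 was at 6884 and 4421 CPM before surgery, 821 by 24 h and 183 and 424 in the 48 h sections. The 72 h sections had 2495 and 7317, those of 14 d 6946, 5241 and 5610, and the last libraries 2917 (3 mo) and 2674 (6 mo). Its fall at 48 h of -4.22 ± 0.56 log2 units (edgeR adjusted p = 0.000125) was kept whichever section was left out, and that at 24 h of -2.78 ± 0.70 (edgeR adjusted p = 0.0185) was -2.43 without the first 0 h section (edgeR adjusted p = 0.0638). The 72 h sections, which were on different slides, lay on either side of the lower 0 h value. Cyp27a1, the mitochondrial sterol hydroxylase, was at 25248 and 16124 at 0 h and at 7399 to 12039 from 24 h to 72 h, a called fall at each of these times that was lost without the first 0 h section (-0.73 to -1.01). Cyp7a1 could not be placed, since its 0 h sections were at 5337 and 91.6.

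Few changes of the IGF axis genes passed the test, which does not show that their levels held. Igfbp2 passed the test at no time (-0.63 to 0.88 log2 units). Igf1 fell at 6 mo only, by -1.26 ± 0.34 (edgeR adjusted p = 0.0207, lost without the second 14 d section at -1.02, edgeR adjusted p = 0.113), from 31251 and 20095 at 0 h to 10721 CPM. Igfals did not pass at any time.

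Of 3 genes of complement and vitronectin, 1 was called lower at 24 h, 2 were at 48 h, 2 at 72 h and 3 at 14 d. Beside these stood 7.69%, 11%, 6.59% and 12.1% of all genes. Of these calls, C8b at 72 h and C6 and C8b at 14 d were kept whichever section was left out. Only C6 at 14 d was kept under scaling both by total counts and by cell number. The complement gene C6 went from 30521 and 16307 CPM at 0 h to 3353, 3728 and 3497 at 14 d (-2.73 ± 0.29, edgeR adjusted p = 6.43e-06). C8b was at 32872 and 43648 at 0 h and at 13312 and 14890 in the 72 h sections, where it fell by -1.44 ± 0.27, and it was also called lower at 24 h, 48 h and 14 d. Pon1, a lipoprotein-bound esterase, was at 36729 and 39119 at 0 h, 14903 by 24 h, 15959 and 17086 in the 48 h sections and 12551 in that of 6 mo. Its fall of -1.20 ± 0.25 at 48 h (edgeR adjusted p = 0.0025) was kept whichever section was left out. Cps1, the entry enzyme of the urea cycle, fell by -1.24 ± 0.23 at 14 d and Arg1 by -1.15 ± 0.25, and both were positive when scaled by the number of cells (0.21 and 0.30). Cyp1a2 fell by -2.17 ± 0.35 and Elovl2, an elongase of polyunsaturated fats, by -1.57 ± 0.24 at 14 d. Rgn went from 15478 and 6151 at 0 h to 1706 at 6 mo (-2.66 ± 0.56, edgeR adjusted p = 0.0069).

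Several scarce genes rose. Cldn7 was at 24.7 and 19.4 CPM at 0 h and at 214 to 275 at 14 d (3.43 ± 0.56, edgeR adjusted p = 0.000215), but among cells without counts of other cell types this was 1.46 (edgeR adjusted p = 0.0882). Cldn7, Sox9 and Wnt5a also rose at 6 mo. The 6 genes of other cell types, which include Sox9, made up 1.90% and 1.93% of mid-band counts at 0 h, 2.68% to 2.95% at 14 d, 3.96% at 3 mo and 4.20% at 6 mo. Among cells without such counts Wnt5a differed by -0.13 at 6 mo (edgeR adjusted p = 0.939), and Cldn7 was called at no time. Sulf2, a sulfatase of heparan sulfate, was at 9.9 and 8.3 at 0 h and 70.3 and 289 at 48 h (4.28 ± 0.79, edgeR adjusted p = 0.000945) and at 207 to 266 at 14 d (4.71 ± 0.77). Axin2 rose at 14 d alone, from 232 and 281 to 868, 1252 and 1539 (2.25 ± 0.46, edgeR adjusted p = 0.0015). The Wnt receptor Fzd2 had 0 counts at 0 h and 297 at 14 d, at least 18.7-fold higher with the 0 h sections together set to 3 counts. Fzd9 had 3 counts at 0 h and 26 at 6 mo, a ratio of 20.1 with a 95% counting interval of 6.15 to 104. Of the 14 d rises, 9 were kept whichever section was left out (among them Axin2, Sulf2 and the 3 transferases).

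The distance of the mid band from its neighbours changed for some genes. By an F test of 6 terms, the mid-minus-central difference changed over time for 10 genes (11%) and the mid-minus-portal difference for 8 (8.79%). Of these 8, Oat, Rgn, Lect2 and Cyp1a2 are central genes whose step towards the portal band was smaller at 14 d than before surgery, as were Axin2 and Cyp7a1, while other central genes such as Tbx3, Cyp27a1, Gstm2 and Rnf43 did not pass (edgeR F test, adjusted p = 0.137, 0.0695, 0.0813 and 0.832). Oat differed between mid and portal band by 3.84 ± 0.24 log2 units before surgery, 3.28 by 24 h, 1.68 both at 48 h and at 72 h, 1.56 by 14 d, 2.06 by 3 mo and 3.59 by 6 mo (edgeR F test, adjusted p = 0.000133). Rgn went from 4.69 ± 0.31 at 0 h to 1.24 ± 0.21 at 14 d and was 4.25 at 3 mo (edgeR F test, adjusted p = 0.000133). Lect2, a secreted Wnt target, went from 4.61 ± 0.34 to 1.10 ± 0.35 at 24 h and 1.47 ± 0.20 at 14 d. Cyp1a2 went from 3.19 ± 0.24 to 0.43 ± 0.31 at 24 h and 0.95 ± 0.18 at 14 d and was 3.42 at 3 mo. These 4 were called whichever section was left out. At 14 d, which was on slide 3 alone, the portal band also held more Cyp2e1 than at the other times. A link between this and the smaller steps was not tested.

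**Figure D5:**
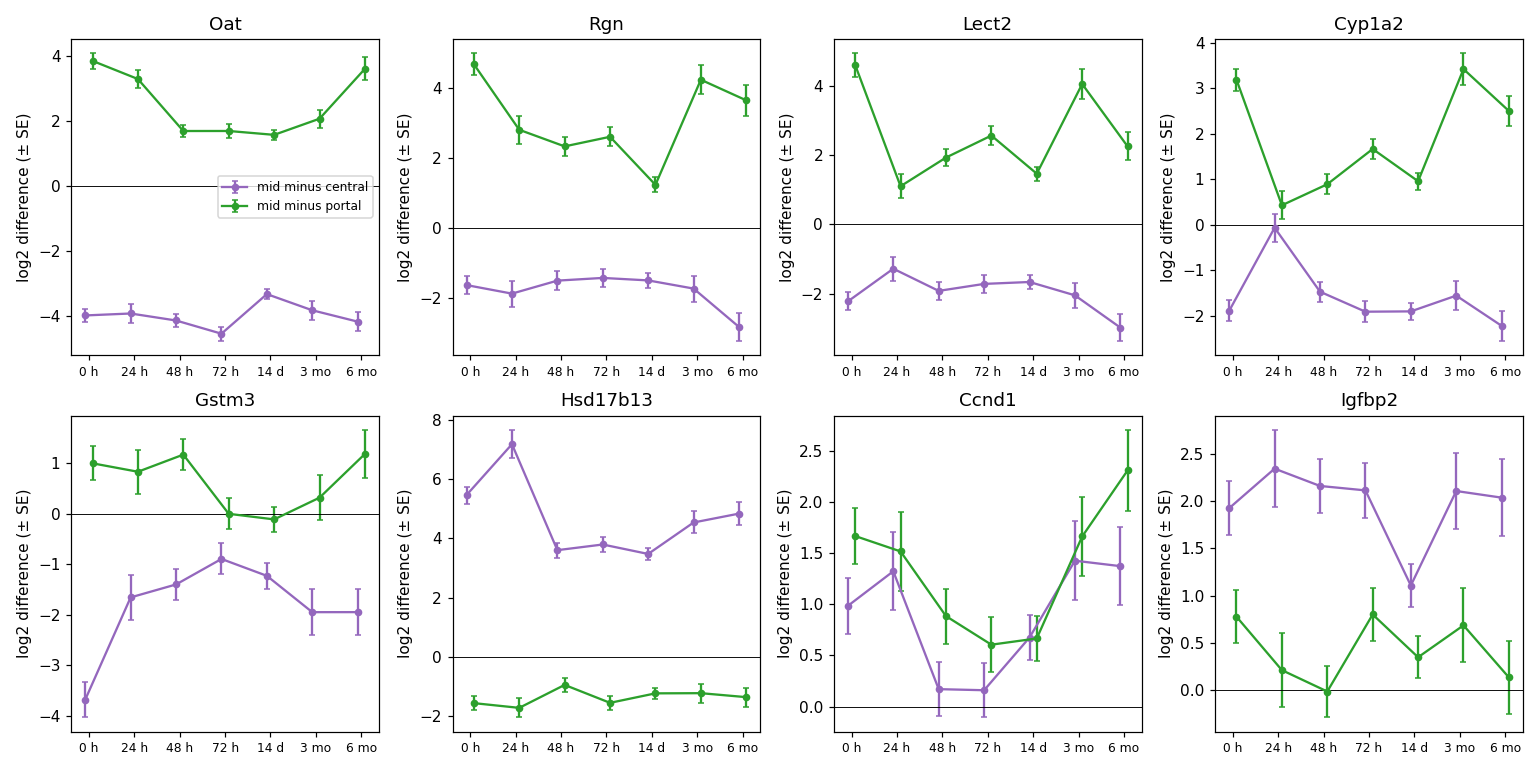
Log2 difference of the mid band to the central and to the portal band (± SE) by time for 8 genes, with times at equal spacing. For Oat, Rgn, Lect2 and Cyp1a2 the difference to the portal band is smaller from 48 h to 14 d than at 0 h, and for Igfbp2 and Ccnd1 the change did not pass the F test.

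Towards the central band Hsd17b13 differed by 5.46 ± 0.29 log2 units at 0 h, 7.17 ± 0.48 by 24 h, 3.60 ± 0.25 by 48 h, 3.79 by 72 h and 3.47 ± 0.20 by 14 d (edgeR F test, adjusted p = 0.000857), a change called whichever section was left out. Its central-band level was 22.7 CPM at 24 h and 984 and 1192 at 48 h. Gstm3 differed by -3.68 ± 0.35 at 0 h and by -0.90 ± 0.31 at 72 h (edgeR F test, adjusted p = 0.0155), while its central-band level went from 7121 and 10181 to 39733 and 39809 CPM. Axin2 went from -3.10 ± 0.25 at 0 h to -0.82 ± 0.18 at 14 d, and at 14 d it no longer stood above the portal band (-0.02 ± 0.18). Leaving out any of the 14 d sections ended the call of the F test for Gstm3, and leaving out the second ended that for Axin2. The change of the Ccnd1 difference did not pass this test (edgeR adjusted p = 0.146 to the central and 0.0813 to the portal band), nor did that of Igfbp2 (edgeR adjusted p = 0.208 and 0.623).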

How the data were processed

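Counts per gene and outlined cell, and transcript positions, were used as the authors deposited them. Per the labels, the assay company made them by Molecular Cartography. Decoding and outlining are not described in those sources. The deposited coordinates have no stated unit. Cell counts were summed per library and band without Cyp2e1, Pck1 and Glul (Python 3.11.15, pandas 2.3.3). Bands were compared with edgeR 4.0.16 in R 4.3.3 (TMM, robust quasi-likelihood fit) on 36 sums with library as block (10 residual df) and times on 12 mid-band sums (5 df), over 91 of 100 genes with 10 or more counts in 2 or more libraries, at an adjusted p of 0.05. Depth per cell, shares of non-hepatocyte counts and thinned shares also leave out Cyp2e1, Pck1 and Glul, which was chosen after seeing the data. Single values used exact two-sided sign-flip tests. Counting intervals are exact binomial at 95% and cover counting error only. The fits were also run on simulated data, whose outcome is not given here. The members and gene lists were chosen with earlier results of these data known. Named genes are 10 fixed ones, the 6 largest rises and falls per time beyond both 0 h sections, up to 2 list members by p, the 8 largest peaks and troughs, the 5 largest zone differences each way and the 8 smallest p of each F test. G6pc, Wnt10a and other list members were named to describe their list. Alternatives changed scaling, tool (DESeq2 1.42.0), filters, band definition, cells, libraries, slide (as a block) and sections. Proteins and promoters were not analysed here.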

Additional observations from a re-analysis of the deposited data

Results flagged for a closer look

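The step from the mid band to a neighbouring band changed over the 7 times for 18 gene and band pairs, each by an edgeR F test of the difference itself, with p-values adjusted over 91 genes.

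Towards the central band, Axin2 had an adjusted p of 0.000221, with -3.10 log2 units at 0 h and -0.82 at 14 d. Hsd17b13 had an adjusted p of 0.000857 with 5.46 and 3.47 at these times. Fads1, a fatty acid desaturase, had an adjusted p of 0.0038, with 0.25 at 0 h and -0.60 at 48 h. Gstm3 had an adjusted p of 0.0155, with -3.68 at 0 h and -0.90 at 72 h, and Gstm2 one of 0.0172, with -2.66 at 0 h and -0.97 at 14 d. Gls2 had an adjusted p of 0.0167, with 5.01 at 0 h and 2.91 at 14 d. Fzd7 had the same adjusted p of 0.0167, and its difference was -0.98 at 0 h and 0.34 at 14 d. Cyp1a2 had an adjusted p of 0.0369, with -1.89 at 0 h and -0.07 at 24 h. Fzd9 (adjusted p of 0.0277) and Sox9 (adjusted p of 0.0439) were also called, with their highest steps at 6 mo (3.57) and 3 mo (6.28) respectively. Leaving out any of the 14 d sections ended the calls of Gstm3, Gstm2, Gls2, Fzd7, Cyp1a2, Fzd9 and Sox9, and other sections ended some of these too. Those of Axin2 and Fads1 ended without the second 14 d section, and Hsd17b13 was called whichever section was left out.

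Towards the portal band, Cyp1a2, Oat and Rgn each had an adjusted p of 0.000133 and Lect2 one of 0.000253, with the differences by time given above. Axin2 had an adjusted p of 0.0051, with 2.01 at 0 h and -0.02 at 14 d. Cyp7a1 had an adjusted p of 0.0442, with 4.60 at 0 h and 2.14 at 14 d. Wnt5a had an adjusted p of 0.0169, and its difference grew from -0.27 at 0 h to 1.60 at 6 mo. Rspo1, an R-spondin, had an adjusted p of 0.0287, with -1.64 at 0 h and 0.83 at 14 d. The 14 d values come from slide 3 alone, and slide and time cannot be told apart there.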

How the results depend on the processing

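Of 4205 values of 170 named gene results under the alternatives, 3580 kept direction and side of the threshold, 567 kept direction without passing and 58 reversed. The causes were not tested.

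Counts of called genes are given as rises and falls against 0 h. Total-count scaling gave 2 falls at 24 h, 17 and 3 at 48 h, 11 and 1 at 72 h, 31 and 7 at 14 d, 10 and 3 at 6 mo, 16 genes lower than in the portal band and 0 troughs. Scaling by cell number gave 0 falls at 24 h, 27 and 1 at 48 h, 35 and 0 at 72 h, 67 and 2 at 14 d and 2 falls at 6 mo. DESeq2 gave 14 rises at 48 h, 18 falls at 14 d, 1 at 3 mo and 8 at 6 mo, and 24 and 18 changing steps to the central and portal band. With the genes of the rule kept, there were 3 falls at 24 h, 16 at 72 h and 9 at 6 mo, and 27 and 21 changing steps. A minimum of 200 counts gave 6 and 3 at 24 h, 18 falls at 14 d, 0 rises at 3 mo and 2 at 6 mo, 3 peaks and 21 changing steps to the central band. Narrow bands gave 6 and 2 at 24 h, 1 fall at 72 h, 0 rises at 3 mo and 2 at 6 mo. Both ranks in the middle gave 20 falls at 14 d, 0 rises at 3 mo, 3 and 2 at 6 mo, 2 peaks and 13 changing steps to the portal band. Without the cells highest in non-hepatocyte genes there were 1 fall at 24 h, 0 rises at 3 mo, 3 peaks, 2 troughs and 16 changing steps to the central band. With only cells without such counts (chosen after seeing the data) there were 6 and 0 at 24 h, 4 falls at 48 h, 1 at 72 h, 6 rises at 14 d, 0 at 3 mo, 2 and 3 at 6 mo, 26 genes higher than in the central and 21 than in the portal band, 2 peaks, 0 troughs, and 17 and 14 changing steps. Cells by position (also chosen after seeing the data) gave 7 and 4 at 24 h, 0 rises at 3 mo, 27 genes higher than in the central band, 0 peaks and 3 troughs. Tiles by position gave 0 peaks and 2 troughs, and tiles by the same rule 3 peaks. The 24 h sections as 2 libraries gave 17 and 13, and the 14 d sections as 1 library 5 and 6 at 14 d, 0 rises at 3 mo, and 3 and 3 at 6 mo. With slide as a block no count moved by over 1.5 times, but this block cannot part slide 3 from 14 d and is no check of the slide there. Section numbers did not pair the samples (correlations of deviations of -0.40 to 0.20), and the replicate block gave 1 fall at 72 h and 7 rises at 14 d.

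With the genes of the rule kept in cell totals, as first planned, the mid-minus-central difference was 0.769 percentage points in non-hepatocyte share and -98.4 in median counts per cell, and the mid-minus-portal difference in median counts was -76.6. Left out of them, as reported (chosen after seeing the data), the same 3 were -0.0971, 90.2 and -15.6, and with a minimum of 200 counts -0.186, 106 and -6.04. The central differences turned, since these totals no longer hold Cyp2e1.

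Leaving out each section in turn gave 7 to 17 rises and 1 to 12 falls at 24 h, 6 to 24 and 5 to 11 at 48 h, 5 to 11 and 1 to 10 at 72 h, 10 to 26 and 7 to 20 at 14 d, 0 to 11 and 0 to 5 at 3 mo, and 5 to 10 and 3 to 20 at 6 mo. The same gave 5 to 9 peaks and 3 to 10 troughs, and 1 to 54 and 4 to 26 changing steps to the central and portal band. The 54 came without the second 0 h section and the 1 without the second 14 d section.

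Scaled by cell number, Cyp27a1 (0.057) and Cps1 (0.22) at 72 h and Znrf3 (0.15), Cps1 (0.21), Arg1 (0.30), C8b (0.32) and Cpox (0.35) at 14 d were positive. Cldn7 at 72 h was -0.019 by cell position. With both ranks in the middle, Fzd9 at 3 mo was -1.36 and Sox9 at 6 mo -0.0052. In cells without non-hepatocyte counts, Wnt5a was -0.13 and Cldn7 -5.16 at 6 mo. Among peaks, values by tile and by cell position were -0.34 and -0.18 (Adgre1), -0.44 and -0.26 (Ptprc), -0.025 and -0.055 (Igfbp2), -0.64 and -0.65 (Fzd1), -1.71 and -1.77 (Fzd3), -1.16 and -0.92 (Wnt4) and -2.90 and -2.75 (Cldn7) against the portal band, and -0.38 and -0.51 (Cldn7) and -0.22 and -0.27 (Wnt4) against the central. With both ranks in the middle they were -1.33 (Cldn7), -0.055 (Fzd1) and -0.25 (Fzd3) against portal and -0.13 (Wnt4) against central. Tiles by the same rule gave -0.90 (Cldn7), -0.18 (Fzd1), -0.37 (Fzd3) and -0.48 (Wnt4) against portal. Without the cells highest in non-hepatocyte genes Cldn7 was -0.11 against portal. Cells without such counts gave -1.07 (Cldn7, central) and -0.14 (Fzd1, portal). The trough genes against portal were positive by total counts at 0.11 (C6), 0.15 (Cpt2), 0.13 (Fzd7), 0.15 (Hpd) and 0.061 (Znrf3). By tile and cell position they were 0.10 and 0.16 (C6), 0.21 and 0.14 (Cpt2), 0.41 and 0.33 (Hpd), and 0.078 and 0.038 (Znrf3), and in cells without non-hepatocyte counts 0.094 (C6), 0.037 (Cpt2), 0.058 (Fzd7) and 0.0704 (Hpd).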
